A study of Mus musculus with 16 samples.

Results

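The 28 genes described here encode the enzymes of the tricarboxylic acid (TCA) cycle, the enzymes that feed carbon into it (anaplerosis) and those that carry reducing equivalents between mitochondria and cytosol. They were chosen by name from what the enzymes do, by a rule that used no measured value but with earlier results of these data known, and each of the 28 symbols matched 1 of the 46078 Ensembl gene identifiers of the count table. The TCA cycle oxidises acetyl-CoA to carbon dioxide in the mitochondrial matrix and passes the electrons, as NADH and FADH2, to the respiratory chain. Anaplerotic enzymes replace intermediates that leave the cycle for fat, glucose or amino acid synthesis. The malate-aspartate shuttle moves electrons of cytosolic NADH into mitochondria, and NADP-dependent enzymes supply NADPH for fatty acid synthesis and for defence against oxidants. Brown adipose tissue (BAT) uses this oxidative machinery to make heat through uncoupling protein 1, whereas white adipose tissue (WAT) mainly stores and releases lipid.

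Poly(A)-selected RNA of female wild-type C57BL/6 mice was sequenced. BAT_5C and WAT_5C are BAT and inguinal WAT of mice that, when 10 to 12 weeks old, were kept at 18 °C for 2 weeks before a 3-week stay at 5 °C. BAT_30C and WAT_30C come from mice that stayed at 30 °C, the temperature at which all the mice were bred and weaned. Age at collection is given as 16 weeks in every group, after 2 to 3 h without food, and each of the 4 groups holds 4 libraries. Depth was 54264023 to 71289020 counts per library. Whether each library is its own mouse is not stated, so p-values measure the spread between libraries, which may be technical in part.

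Several facts about the libraries touch the results. Groups follow the sample titles and housing temperatures, and 1 other label contradicts them in 4 BAT libraries, namely BAT_5C replicates 1 and 2 with BAT_30C replicates 3 and 4. The label for the BAT depot reads as inguinal. Ucp1 was at 12388 to 13787 CPM in BAT_5C and 634 to 2019 CPM in BAT_30C libraries. Of 8 brown fat markers, Ucp1 among them, 3 rose and 2 fell in BAT_5C by the test used below, against 29.2 and 30.3% of all genes. Ebf2 was lower in BAT_5C, at 57.6 to 83.5 CPM against 107 to 153 CPM in BAT_30C. Lhx8 was at 2.59 to 22.3 CPM in BAT and overlapped WAT, with 1.51 to 3.71 CPM. The sum of the 8 was 2360 to 17348 CPM in BAT and 25.7 to 619.7 CPM in WAT. The 5 white fat markers divided: Hoxc10 was at 0 in every BAT library and at 5.76 to 24.0 CPM in WAT libraries, and Hoxc9 was at most 0.165 CPM in BAT and at least 4.07 CPM in WAT. Hoxc8 was at 0.314 to 9.47 CPM in BAT and 14.4 to 53.3 CPM in WAT. Tcf21 was at 0 in BAT and at most 0.131 CPM in WAT, and Lep overlapped, with 3.04 to 224 CPM in BAT and 13.1 to 203 CPM in WAT. The sum of the 5 was separate at 5 °C, with 11.6 to 41.9 CPM in BAT_5C against 49.0 to 289.9 CPM in WAT_5C, and overlapped at 30 °C, with 91.7 to 231 CPM in BAT_30C against 90.5 to 229 CPM in WAT_30C. WAT_5C replicate 1 stood apart: its score on the first principal component was 13.9, against 126 to 163 in the other WAT libraries and -165 to -106 in BAT libraries. The summed level of 10 mammary epithelium markers was 9.52 CPM in that library, while the other WAT libraries held 580.0 to 903 CPM. WAT results are therefore given with and without it.

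Levels below are CPM, a gene's counts relative to its library's size, scaled by TMM, a method that sets the bulk of genes equal between libraries. The 28 genes together held 1.93 to 2.06% of all counts in BAT_5C libraries, 1.55 to 1.67% in BAT_30C libraries, 0.581 to 1.14% in WAT_5C libraries and 0.419 to 0.524% in WAT_30C libraries. Per kilobase of exon, the scale on which genes can be set against each other, mean levels in BAT_5C were highest for Ogdh (991 CPM per kilobase), Mdh1 (694), Idh3g (654) and Cs (576). In BAT_30C the order began with Cs (460.0 CPM per kilobase), Ogdh (437) and Sucla2 (435). Pcx was highest per kilobase in WAT, with 413 in WAT_5C and 138 CPM per kilobase in WAT_30C, followed by Mdh1 with 216 and 83.7. Ogdhl was lowest per kilobase in all 4 groups. Its raw counts ran from 3 to 45 per library, and those of Gls2 from 10 to 125, so both rest on few reads.

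**Figure D1:**
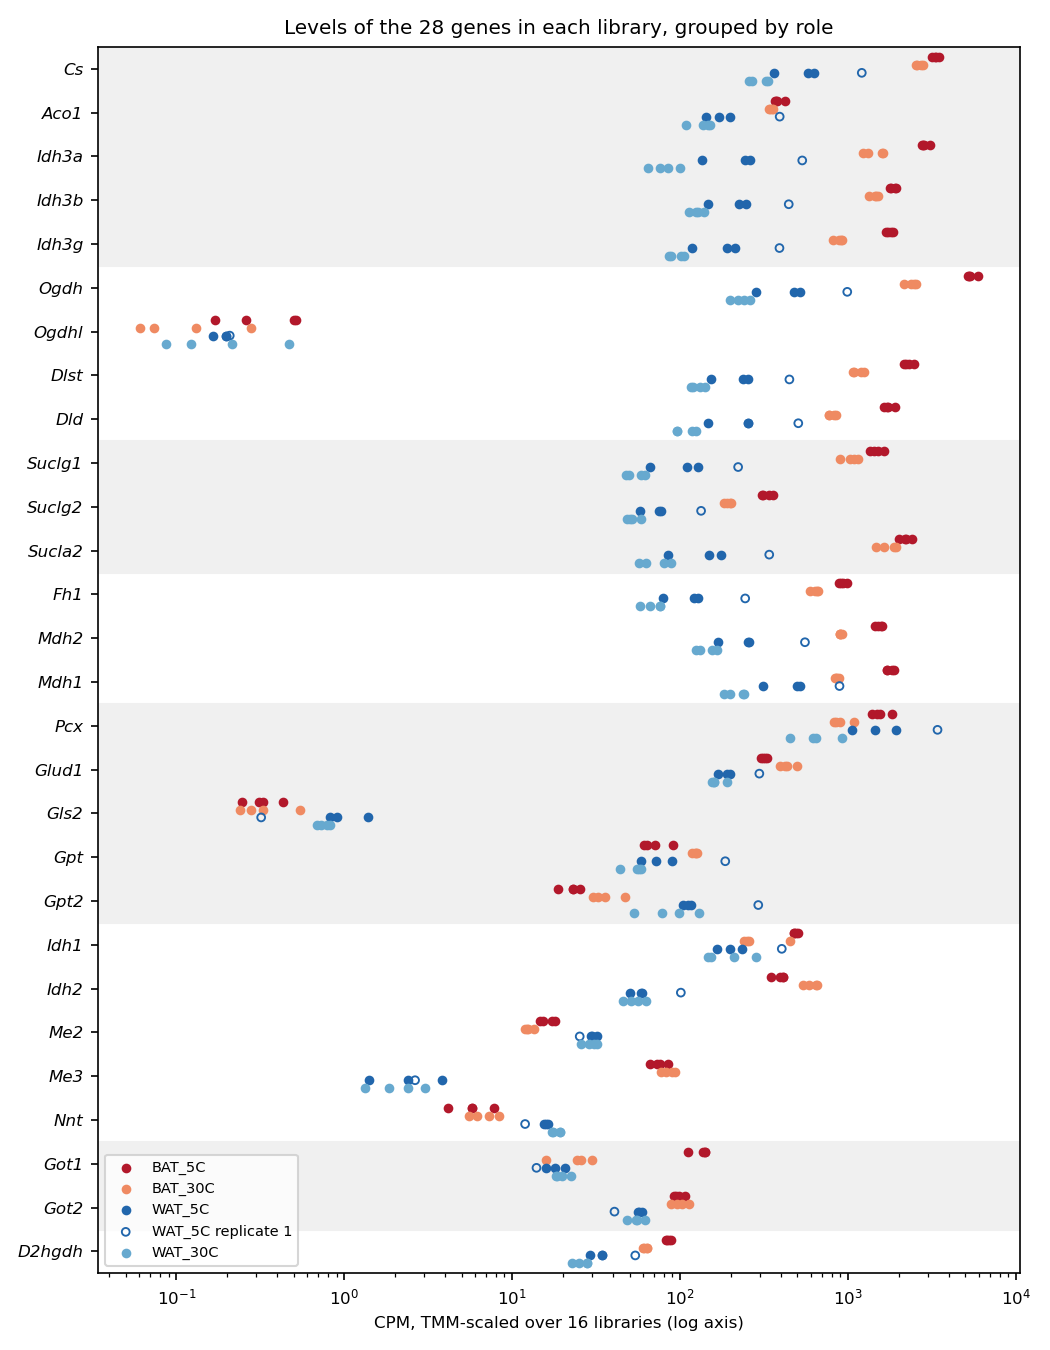
Level of each of the 28 genes in every library (x axis, TMM-scaled CPM on a log axis; rows are genes, shaded by role; 1 point per library, coloured by group, with WAT_5C replicate 1 as an open circle). The BAT points lie right of the WAT points for most cycle enzymes and mostly left of them for Gls2, Gpt2, Me2 and Nnt, and the open circle lies right of the other WAT_5C points for most genes.

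Cold housing in BAT was tested first, with edgeR's quasi-likelihood test. Of the 28 genes, 19 rose and 4 fell in BAT_5C relative to BAT_30C, against 29.2% of all 16213 genes tested that rose and 30.3% that fell. The median log2 fold change was 0.48 over the 28 genes and -0.053 over all genes. Got1, the cytosolic aspartate transaminase, had the largest rise. The genes that fell were Glud1, Gpt and Gpt2, which turn glutamate or alanine into cycle intermediates or pyruvate, and Idh2, the mitochondrial NADP-dependent isocitrate dehydrogenase. With library totals in place of TMM the median of all genes fell by 0.38 on the log2 scale, which left 11 genes that rose and 8 that fell, against 14.3 and 54.5% of all genes. The 11 were Dld, Dlst, Fh1, Got1, Idh3a, Idh3g, Mdh1, Mdh2, Ogdh, Pcx and Suclg2, all of which also rose under TMM. The 8 were the same 4 that fell under TMM together with Aco1, Got2, Me3 and Nnt.

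In the span from citrate to 2-oxoglutarate, 4 of 5 genes rose in BAT. Idh3a, the catalytic subunit of the NAD-dependent isocitrate dehydrogenase, was at 2764, 2834, 2787 and 3067 CPM in BAT_5C libraries, against 1225, 1591, 1316 and 1618 CPM in BAT_30C libraries, a log2 change of 0.9959 ± 0.100 (SE, adjusted p = 2.19e-05). Idh3g, its regulatory gamma subunit, was at 1798, 1683, 1736 and 1845 CPM in BAT_5C libraries, against 818, 922, 885 and 913 CPM in BAT_30C libraries, a log2 change of 0.9997 ± 0.065 (SE, adjusted p = 1.35e-06). Every BAT_5C library lay above every BAT_30C library for both subunits. The beta subunit Idh3b ranged over 1788 to 1942 CPM in BAT_5C and 1333 to 1507 CPM in BAT_30C, and its rise of 0.37 turned to -0.0054 under library totals. Cs, the citrate synthase that opens the cycle, ranged over 3184 to 3492 CPM in BAT_5C and 2538 to 2792 CPM in BAT_30C, and its rise of 0.33 turned to -0.054 under library totals. Aco1, the cytosolic aconitase that doubles as an iron-regulatory RNA-binding protein, was at 424, 369, 373 and 379 CPM in BAT_5C libraries, against 354, 357, 342 and 338 CPM in BAT_30C libraries. The groups did not overlap, yet its log2 fold change of 0.15 ± 0.062 (SE, adjusted p = 0.0576) did not pass, and under library totals it was -0.23 (adjusted p = 0.00907). Aco1 passed as a rise with RLE size factors (0.18, adjusted p = 0.0338) and with DESeq2 (0.19, adjusted p = 0.0154). It also passed without BAT_5C replicate 2, BAT_30C replicate 1 or BAT_30C replicate 2, and in no other fit that left 1 library out.

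All 4 genes of the 2-oxoglutarate dehydrogenase complex and its relative rose in BAT under TMM. Dld, the dihydrolipoamide dehydrogenase shared with pyruvate dehydrogenase, was at 1703, 1741, 1639 and 1894 CPM in BAT_5C libraries, against 771, 819, 768 and 843 CPM in BAT_30C libraries, a log2 change of 1.13 ± 0.069 (SE, adjusted p = 1.01e-06). The groups were far apart, with the lowest BAT_5C library above the highest BAT_30C library. Ogdh, the component that decarboxylates 2-oxoglutarate, ranged over 5156 to 5926 CPM in BAT_5C and 2147 to 2539 CPM in BAT_30C (log2 fold change 1.18). Dlst, the succinyltransferase core, ranged over 2158 to 2464 CPM in BAT_5C and 1070.0 to 1253 CPM in BAT_30C (log2 fold change 0.99). Ogdhl, a relative of Ogdh, ranged over 0.170 to 0.519 CPM in BAT_5C and 0.0607 to 0.277 CPM in BAT_30C, with overlapping groups. Its log2 fold change of 1.40 ± 0.55 (SE, adjusted p = 0.0493) was lost under library totals and without any 1 of replicates 2, 3 and 4 of BAT_5C or replicates 1, 3 and 4 of BAT_30C, with log2 fold changes of 1.18 to 1.55 and adjusted p of 0.0549 to 0.131 in those 6 fits. Without BAT_30C replicate 2 its log2 fold change was 2.05. Ogdhl also did not pass with DESeq2 (1.45, adjusted p = 0.0558) or without a filter on low counts (1.41, adjusted p = 0.0764). In 1 fit of all 16 libraries it was at 1.41 (adjusted p = 0.0617).

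The 3 genes of succinyl-CoA ligase, the step that makes GTP or ATP directly, rose in BAT. Suclg2, the beta subunit of the GTP-forming enzyme, was at 338, 312, 307 and 357 CPM in BAT_5C libraries, against 183, 199, 189.8 and 201 CPM in BAT_30C libraries, a log2 change of 0.77 ± 0.070 (SE, adjusted p = 1.2e-05). Suclg1, the alpha subunit common to both forms, was at 1499.5, 1426, 1358 and 1641 CPM in BAT_5C libraries, against 895, 1082, 1026 and 1141 CPM in BAT_30C libraries, a log2 change of 0.52 ± 0.093 (SE, adjusted p = 0.000987). Sucla2, the beta subunit of the ATP-forming enzyme, was at 2225, 2196, 2024 and 2417 CPM in BAT_5C libraries, against 1476, 1879, 1648 and 1934 CPM in BAT_30C libraries, a log2 change of 0.36 ± 0.099 (SE, adjusted p = 0.0114). BAT_5C and BAT_30C libraries did not overlap for any of the 3 genes. Under library totals Suclg2 rose by 0.39, whereas Suclg1 at 0.14 (adjusted p = 0.0935) and Sucla2 at -0.022 (adjusted p = 0.807) did not pass.

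Fumarase and both malate dehydrogenases rose in BAT under either scaling. Mdh1, the cytosolic malate dehydrogenase of the malate-aspartate shuttle, was at 1709, 1715, 1823 and 1876 CPM in BAT_5C libraries, against 839, 855, 843 and 886 CPM in BAT_30C libraries, a log2 change of 1.06 ± 0.058 (SE, adjusted p = 5.53e-07). Mdh2, the mitochondrial enzyme that closes the cycle, was at 1572, 1454, 1499 and 1597 CPM in BAT_5C libraries, against 890.3, 899, 894 and 918 CPM in BAT_30C libraries, a log2 change of 0.77 ± 0.058 (SE, adjusted p = 3.43e-06). The 4 libraries of each group lay close together and the groups were well apart. Fh1, the fumarase, ranged over 881 to 992 CPM in BAT_5C and 592 to 663 CPM in BAT_30C (log2 fold change 0.55).

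The 5 anaplerotic genes moved apart in BAT: 1 rose and 3 fell. Pcx, the pyruvate carboxylase that makes oxaloacetate, was at 1819.8, 1397, 1545 and 1478 CPM in BAT_5C libraries, against 1085, 827, 899 and 851 CPM in BAT_30C libraries, a log2 change of 0.77 ± 0.11 (SE, adjusted p = 0.000222). Glud1, the glutamate dehydrogenase, was at 328, 311, 303 and 321 CPM in BAT_5C libraries, against 494, 431, 396 and 421 CPM in BAT_30C libraries, a log2 change of -0.46 ± 0.075 (SE, adjusted p = 0.000519). Pcx was thus higher and Glud1 lower in all 4 BAT_5C libraries than in any BAT_30C library. Gpt, the cytosolic alanine transaminase, was at 90.6, 71.1, 60.7 and 63.8 CPM in BAT_5C libraries, against 124, 123, 118 and 126 CPM in BAT_30C libraries, a log2 change of -0.77 ± 0.12 (SE, adjusted p = 0.000301). Gpt2, its mitochondrial counterpart, was at 25.3, 23.0, 22.9 and 18.8 CPM in BAT_5C libraries, against 46.7, 35.9, 32.6 and 30.2 CPM in BAT_30C libraries, a log2 change of -0.69 ± 0.14 (SE, adjusted p = 0.00188). Both transaminases were lower in all 4 BAT_5C libraries. Gls2, the glutaminase best known from liver, was at 0.311, 0.434, 0.330 and 0.247 CPM in BAT_5C libraries, against 0.277, 0.2403, 0.547 and 0.326 CPM in BAT_30C libraries, with overlapping groups and a log2 change of -0.064 ± 0.35 (SE, adjusted p = 0.888).

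Among the NADPH and transhydrogenation genes and Me2, which is grouped with them here, 2 rose (Idh1 and Me2) and 1 fell (Idh2) in BAT. Idh2, the mitochondrial NADP-dependent isocitrate dehydrogenase, was at 409.7, 395, 346 and 411 CPM in BAT_5C libraries, against 541, 648, 585 and 658 CPM in BAT_30C libraries, a log2 change of -0.64 ± 0.087 (SE, adjusted p = 0.00017). Idh1, its cytosolic counterpart, was at 479, 475, 506 and 491 CPM in BAT_5C libraries, against 453, 250.3, 257 and 241 CPM in BAT_30C libraries, a log2 change of 0.70 ± 0.19 (SE, adjusted p = 0.00888). For Idh1 the groups were separate, but BAT_30C replicate 1 lay near the BAT_5C range. Under library totals Idh1 was at 0.31 (adjusted p = 0.205). Me2, a mitochondrial malic enzyme that makes pyruvate from malate, was at 14.7, 17.2, 15.2 and 17.9 CPM in BAT_5C libraries, against 13.4, 11.9, 12.2 and 12.5 CPM in BAT_30C libraries, a log2 change of 0.38 ± 0.090 (SE, adjusted p = 0.0045) that was 0.0013 under library totals. Me3, the mitochondrial malic enzyme that uses NADP, was at 75.6, 72.4, 66.0 and 84.3 CPM in BAT_5C libraries, against 76.8, 89.0, 92.6 and 82.2 CPM in BAT_30C libraries, a log2 change of -0.19 ± 0.091 (SE, adjusted p = 0.101). Nnt, the transhydrogenase that couples the proton gradient to NADPH, was at 5.74, 7.78, 5.75 and 4.18 CPM in BAT_5C libraries, against 8.39, 5.53, 6.13 and 7.28 CPM in BAT_30C libraries, a log2 change of -0.22 ± 0.20 (SE, adjusted p = 0.36). The groups overlapped for Me3 and Nnt, and the log2 fold changes under library totals were -0.57 (adjusted p = 0.00014) and -0.60 (adjusted p = 0.0377).

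Of the aspartate transaminases, Got1 rose and Got2 did not pass. Got1, the cytosolic enzyme of the malate-aspartate shuttle, was at 111, 140.2, 137 and 142 CPM in BAT_5C libraries, against 25.9, 24.2, 15.8 and 29.7 CPM in BAT_30C libraries, a log2 change of 2.47 ± 0.18 (SE, adjusted p = 2.4e-06). Got2, the mitochondrial enzyme, was at 92.5, 107, 97.9 and 94.0 CPM in BAT_5C libraries, against 88.4, 103, 95.6 and 112 CPM in BAT_30C libraries, a log2 change of -0.025 ± 0.079 (SE, adjusted p = 0.8) that was -0.40 (adjusted p = 0.00135) under library totals. The lowest BAT_5C library for Got1 was more than 3 times the highest BAT_30C library, whereas the groups overlapped for Got2. D2hgdh, which oxidises D-2-hydroxyglutarate to 2-oxoglutarate, was at 87.9, 81.9, 84.0 and 85.6 CPM in BAT_5C libraries, against 63.4, 60.4, 61.2 and 63.8 CPM in BAT_30C libraries, a log2 change of 0.45 ± 0.050 (SE, adjusted p = 4.16e-05) that was 0.068 (adjusted p = 0.284) under library totals. Its groups did not overlap under TMM.

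Counted by overlap of the libraries' CPM, 19 of the 28 genes were higher and 4 lower in every BAT_5C library than in any BAT_30C library, against 27.6% of all genes in each direction. The 4 BAT libraries whose labels all match gave 13 that rose and 4 that fell, against 20.3 and 16.4% of genes; Cs, Idh1, Idh3b, Me2, Ogdhl and Sucla2 did not pass there. One fit of all 16 libraries, in which BAT and WAT share an estimate of the spread, gave 12 that rose and 3 that fell, against 20.9 and 23.7% of 19481 genes. Marker genes of other cells also moved with temperature in BAT. All 7 T and NK cell markers fell, with summed levels of 1.46 to 3.46 CPM in BAT_5C and at least 7.21 CPM in BAT_30C libraries, and none of the 7 was at 0 throughout a group. Of 5 adipocyte markers 3 rose and 1 fell, with sums of 11856 to 12502 CPM in BAT_5C and 9447 to 11716 CPM in BAT_30C. Of 12 skeletal muscle markers none passed, and their sums overlapped, with 54.2 to 2285 CPM in BAT_5C and 58.5 to 1501 CPM in BAT_30C. The part of these cells in the results was not tested, and in whole tissue fewer cells of a type and less RNA per cell cannot be told apart.

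**Figure D2:**
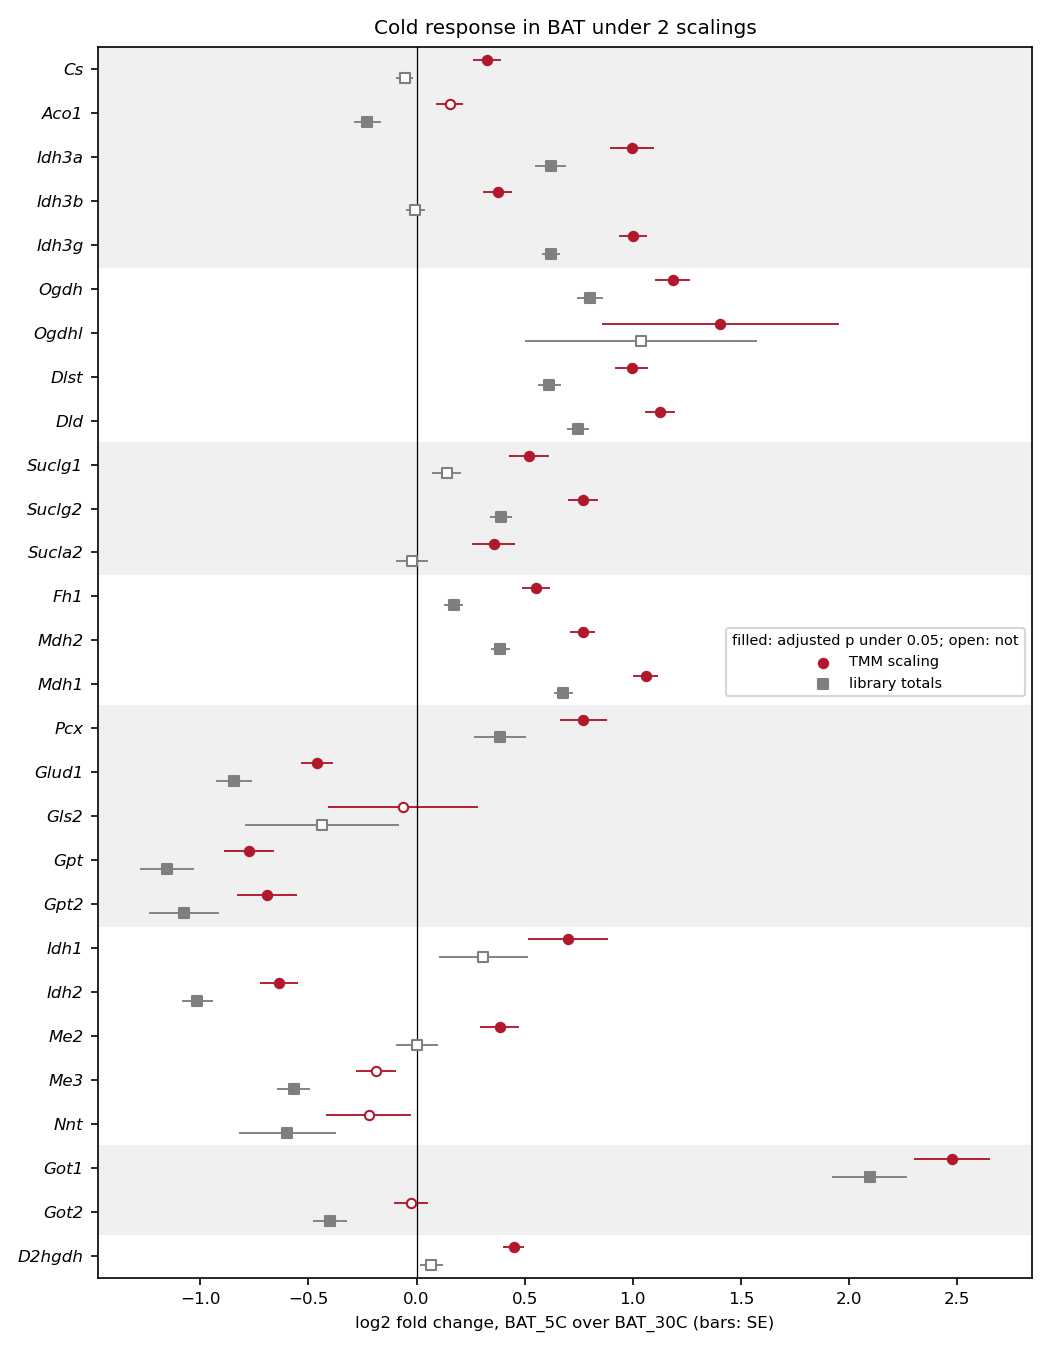
log2 fold change of each gene in BAT_5C over BAT_30C (x axis; bars are SE, 4 libraries per group) under TMM scaling (circles) and under library totals (squares), with filled symbols for an adjusted p under 0.05. Each square lies left of its circle, and Cs, Aco1, Idh3b and Sucla2 change sign between the scalings.

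Promoters were searched for motifs that estrogen-related receptors and NRF1, regulators of mitochondrial genes, are known to bind. RefSeq promoter windows (GRCm38.p6, 250 bases before to 50 after the start) were found for 23 of the 28 genes. The full element TCAAGGTCA, on either strand, was in none of the 23, and in 0.466% of all 27025 genes with a window. The NRF1 element was in none of the 23, and in 1.07% of all genes. The shorter core AAGGTCA, which the full element contains, was in 2 of the 23 (8.7%), Got1 and Ogdh, and in 5.38% of all genes. Both rose in BAT_5C, so their windows are shown, from 250 bases before to 10 bases after the start and 5′ to 3′ along the gene's strand, with the match in capitals. The Ogdh window is chr11:6291920-6292179 on the + strand, and its match, read on the opposite strand as TGACCTT, spans positions -5 to 1 around the start. The Got1 window is chr19:43524596-43524855 on the - strand, and its match spans positions -245 to -239.
Ogdh: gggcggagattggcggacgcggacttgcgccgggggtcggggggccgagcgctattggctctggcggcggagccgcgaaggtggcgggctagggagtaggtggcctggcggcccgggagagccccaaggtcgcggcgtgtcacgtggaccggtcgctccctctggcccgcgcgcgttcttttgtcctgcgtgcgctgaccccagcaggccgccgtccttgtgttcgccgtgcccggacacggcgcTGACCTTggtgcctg
Got1: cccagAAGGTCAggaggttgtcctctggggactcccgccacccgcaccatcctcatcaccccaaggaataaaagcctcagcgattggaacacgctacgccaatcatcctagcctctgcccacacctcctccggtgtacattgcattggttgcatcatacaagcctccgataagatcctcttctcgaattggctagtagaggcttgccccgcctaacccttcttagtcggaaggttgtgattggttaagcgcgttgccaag

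The WAT result depended on the fit. With the 8 WAT libraries alone 0 of the 28 rose and 0 fell by edgeR's quasi-likelihood test, against 0.0632 and 0.0% of the 18975 genes tested. At an unadjusted p under 0.05, 17 of the 28 had a positive and 1 a negative log2 fold change, against 2144 and 1286 of all genes. DESeq2 on the same libraries called 12 of the 28, all higher in WAT_5C, against 3.99% higher and 1.16% lower among 19776 genes with an adjusted p. One fit of all 16 libraries, in which WAT takes its spread jointly with BAT, called 16, all higher in WAT_5C, against 7.39 and 0.76% of 19481 genes. Of the 28 log2 fold changes 23 were positive, and their median was 0.82, against -0.014 over all genes. Without WAT_5C replicate 1, 2 of the 28 rose, Idh3a and Mdh1, against 1.84% of the 19320 genes tested that rose and 0.274% that fell, and the median of the 28 was 0.42. Under library totals 0 of the 28 passed with all libraries (0.385 and 0.0474% of genes), and the same 2 rose without that library (1.16 and 0.455%). Without WAT_5C replicate 2 in its place, 5 rose, Idh3a, Idh3g, Dld, Suclg1 and Mdh1, against 1.37% of genes that rose and 0.0414% that fell.

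The spread among the WAT_5C libraries was wide and ran the same way in most genes. Of the 23 genes with a positive log2 fold change, replicate 1 was the highest WAT_5C library in 21 and replicate 2 the lowest in 22. The summed level of 5 adipocyte markers over replicates 1 to 4 was 15191, 3920.3, 5708 and 5879 CPM in WAT_5C libraries, against 2587, 3853, 3734 and 4538 CPM in WAT_30C libraries. That of 8 brown fat markers was 394, 60.7, 619.7 and 254 CPM in WAT_5C libraries, against 25.7, 37.2, 37.9 and 43.5 CPM in WAT_30C libraries. Replicate 1 was highest for the adipocyte sum and replicate 2 lowest for both. Of the 8 brown fat markers 3 were higher in every WAT_5C library, against 8.23% of all genes. None of the 8 passed with all libraries and 2 rose without replicate 1, where 1.84% of all genes rose. None was at 0 throughout a WAT group. Of 7 T and NK cell markers 6 were lower in every WAT_5C library, against 5.42% of all genes. None of the 7 passed, with or without replicate 1. Their sums were 87.3 to 388 CPM in WAT_5C and 404 to 583 CPM in WAT_30C. Skeletal muscle markers summed to 21.7 to 6617 CPM in WAT_5C libraries, highest in replicate 1, and to 123 to 9622 CPM in WAT_30C libraries. The part of these cells in the WAT values was not tested.

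Idh3a and Mdh1 were the genes that passed in WAT without WAT_5C replicate 1. Idh3a was at 534, 135, 260.3 and 244 CPM in WAT_5C libraries, against 64.3, 75.6, 100.5 and 84.2 CPM in WAT_30C libraries, a log2 change of 1.82 ± 0.39 (SE, adjusted p = 0.125) with all libraries and 1.36 ± 0.23 (SE, adjusted p = 0.0326) without WAT_5C replicate 1. Mdh1 was at 889.6, 313, 497 and 517 CPM in WAT_5C libraries, against 183, 199, 240.1 and 237 CPM in WAT_30C libraries, a log2 change of 1.34 ± 0.30 (SE, adjusted p = 0.131) with all libraries and 1.01 ± 0.18 (SE, adjusted p = 0.039) without WAT_5C replicate 1. For both genes every WAT_5C library was above every WAT_30C library. Idh3g was at 391, 117, 212 and 189 CPM in WAT_5C libraries, against 86.4, 87.8, 106 and 101 CPM in WAT_30C libraries, a log2 change of 1.22 ± 0.32 (SE, adjusted p = 0.176) with all libraries and 0.82 ± 0.18 (SE, adjusted p = 0.064) without WAT_5C replicate 1. Dld was at 506, 146, 254 and 254 CPM in WAT_5C libraries, against 96.0, 95.6, 118 and 125 CPM in WAT_30C libraries, a log2 change of 1.39 ± 0.34 (SE, adjusted p = 0.155) with all libraries and 0.97 ± 0.20 (SE, adjusted p = 0.0507) without WAT_5C replicate 1. Neither passed without replicate 1, although the groups did not overlap.

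The succinyl-CoA ligase genes and Mdh2 had smaller gaps between the groups. Suclg1 was at 222, 66.4, 129 and 110.4 CPM in WAT_5C libraries, against 47.3, 49.6, 62.2 and 58.8 CPM in WAT_30C libraries, a log2 change of 1.24 ± 0.32 (SE, adjusted p = 0.171) with all libraries and 0.87 ± 0.20 (SE, adjusted p = 0.0702) without WAT_5C replicate 1. Sucla2 was at 339, 84.2, 175 and 148 CPM in WAT_5C libraries, against 56.7, 62.5, 80.2 and 88.6 CPM in WAT_30C libraries, a log2 change of 1.35 ± 0.39 (SE, adjusted p = 0.187) with all libraries and 0.88 ± 0.25 (SE, adjusted p = 0.0942) without WAT_5C replicate 1. Suclg2 was at 133, 57.7, 74.4 and 77.2 CPM in WAT_5C libraries, against 48.2, 50.5, 52.0 and 58.8 CPM in WAT_30C libraries, a log2 change of 0.68 ± 0.24 (SE, adjusted p = 0.228) with all libraries and 0.38 ± 0.11 (SE, adjusted p = 0.102) without WAT_5C replicate 1. The groups were separate for Suclg1 and overlapped for Sucla2 and Suclg2 through WAT_5C replicate 2. Mdh2 was at 554, 167, 256 and 252 CPM in WAT_5C libraries, against 124, 131, 166 and 154 CPM in WAT_30C libraries, a log2 change of 1.06 ± 0.34 (SE, adjusted p = 0.214) with all libraries and 0.61 ± 0.17 (SE, adjusted p = 0.0902) without WAT_5C replicate 1. Its groups did not overlap, with a narrow gap. Cs, Idh3b, Ogdh, Dlst and Fh1 ranged from 1.02 to 1.27 on the log2 scale with all libraries and from 0.63 to 0.85 without replicate 1, and none passed. Ogdhl was at -0.25 and -0.29.

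Of the anaplerotic genes in WAT, Pcx had the largest log2 fold change. Pcx was at 3411, 1057, 1457 and 1935 CPM in WAT_5C libraries, against 452, 643, 915 and 616 CPM in WAT_30C libraries, a log2 change of 1.55 ± 0.39 (SE, adjusted p = 0.163) with all libraries and 1.14 ± 0.26 (SE, adjusted p = 0.0684) without WAT_5C replicate 1. Glud1 was at 296, 169, 198 and 192 CPM in WAT_5C libraries, against 159, 160.3, 155 and 189.8 CPM in WAT_30C libraries, a log2 change of 0.34 ± 0.18 (SE, adjusted p = 0.334) with all libraries and 0.13 ± 0.099 (SE, adjusted p = 0.452) without WAT_5C replicate 1. The Pcx groups did not overlap, and the Glud1 groups did through WAT_30C replicate 4. Gpt was at 186, 58.5, 71.7 and 90.1 CPM in WAT_5C libraries, against 44.1, 55.2, 56.8 and 58.6 CPM in WAT_30C libraries, a log2 change of 0.89 ± 0.34 (SE, adjusted p = 0.247) with all libraries and 0.42 ± 0.15 (SE, adjusted p = 0.155) without WAT_5C replicate 1. Gpt2 was at 292, 104, 111 and 116 CPM in WAT_5C libraries, against 53.3, 129.7, 78.5 and 99.0 CPM in WAT_30C libraries, a log2 change of 0.76 ± 0.40 (SE, adjusted p = 0.329) with all libraries and 0.26 ± 0.26 (SE, adjusted p = 0.587) without WAT_5C replicate 1. WAT_5C replicate 1 was by far the highest library for both transaminases. For Gpt2 the other 3 lay within the WAT_30C range. For Gpt replicates 3 and 4 lay above every WAT_30C library, and replicate 2, at 58.5 CPM, lay just below the highest, at 58.6 CPM. Gls2 was at 0.320, 1.38, 0.819 and 0.903 CPM in WAT_5C libraries, against 0.731, 0.692, 0.826 and 0.788 CPM in WAT_30C libraries, a log2 change of 0.15 ± 0.38 (SE, adjusted p = 0.845) with all libraries and 0.41 ± 0.23 (SE, adjusted p = 0.321) without WAT_5C replicate 1, with WAT_5C replicate 1 the lowest of the 8.

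Of the NADPH and transhydrogenation genes in WAT, Nnt was the 1 whose groups did not overlap. Idh1 was at 403, 166, 197 and 234 CPM in WAT_5C libraries, against 209, 152, 147 and 282 CPM in WAT_30C libraries, a log2 change of 0.31 ± 0.32 (SE, adjusted p = 0.592) with all libraries and -0.022 ± 0.23 (SE, adjusted p = 0.967) without WAT_5C replicate 1. Idh2 was at 101, 50.4, 59.4 and 58.7 CPM in WAT_5C libraries, against 45.5, 56.3, 51.1 and 62.6 CPM in WAT_30C libraries, a log2 change of 0.29 ± 0.22 (SE, adjusted p = 0.46) with all libraries and 0.025 ± 0.11 (SE, adjusted p = 0.921) without WAT_5C replicate 1. The groups overlapped for both. Me2 ranged over 25.2 to 32.2 CPM in WAT_5C and 25.5 to 32.01 CPM in WAT_30C, and Me3 over 1.41 to 3.82 CPM in WAT_5C and 1.34 to 3.03 CPM in WAT_30C, with overlapping groups. Nnt was at 11.9, 16.3, 15.4 and 15.8 CPM in WAT_5C libraries, against 17.6, 17.4, 19.4 and 19.3 CPM in WAT_30C libraries, a log2 change of -0.34 ± 0.12 (SE, adjusted p = 0.228) with all libraries and -0.25 ± 0.075 (SE, adjusted p = 0.11) without WAT_5C replicate 1. It was the 1 gene of the 28 whose WAT_5C libraries all lay below the WAT_30C libraries.

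Got1 was at 13.96, 15.8, 20.8 and 18.01 CPM in WAT_5C libraries, against 18.2, 19.7, 22.3 and 18.4 CPM in WAT_30C libraries, a log2 change of -0.23 ± 0.14 (SE, adjusted p = 0.375) with all libraries and -0.15 ± 0.11 (SE, adjusted p = 0.473) without WAT_5C replicate 1. Got2 was at 40.7, 59.0, 57.1 and 55.9 CPM in WAT_5C libraries, against 54.9, 55.2, 62.0 and 48.1 CPM in WAT_30C libraries, a log2 change of -0.079 ± 0.14 (SE, adjusted p = 0.762) with all libraries and 0.025 ± 0.089 (SE, adjusted p = 0.895) without WAT_5C replicate 1. The groups overlapped for both, with WAT_5C replicate 1 the lowest library of the 8. D2hgdh was at 54.1, 28.9, 34.3 and 34.2 CPM in WAT_5C libraries, against 22.8, 24.9, 27.99 and 28.1 CPM in WAT_30C libraries, a log2 change of 0.52 ± 0.19 (SE, adjusted p = 0.241) with all libraries and 0.29 ± 0.098 (SE, adjusted p = 0.136) without WAT_5C replicate 1, and Aco1 at 392, 143, 169.9 and 199 CPM in WAT_5C libraries, against 108, 147, 137 and 150.4 CPM in WAT_30C libraries, a log2 change of 0.71 ± 0.31 (SE, adjusted p = 0.276) with all libraries and 0.30 ± 0.15 (SE, adjusted p = 0.263) without WAT_5C replicate 1. D2hgdh did not overlap between the groups and Aco1 did. Over the 28 genes, 13 were higher and 1 lower in every WAT_5C library than in any WAT_30C library, against 8.23 and 5.42% of all genes, and without replicate 1 the counts were again 13 and 1, against 11.9 and 7.05%.

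**Figure D3:**
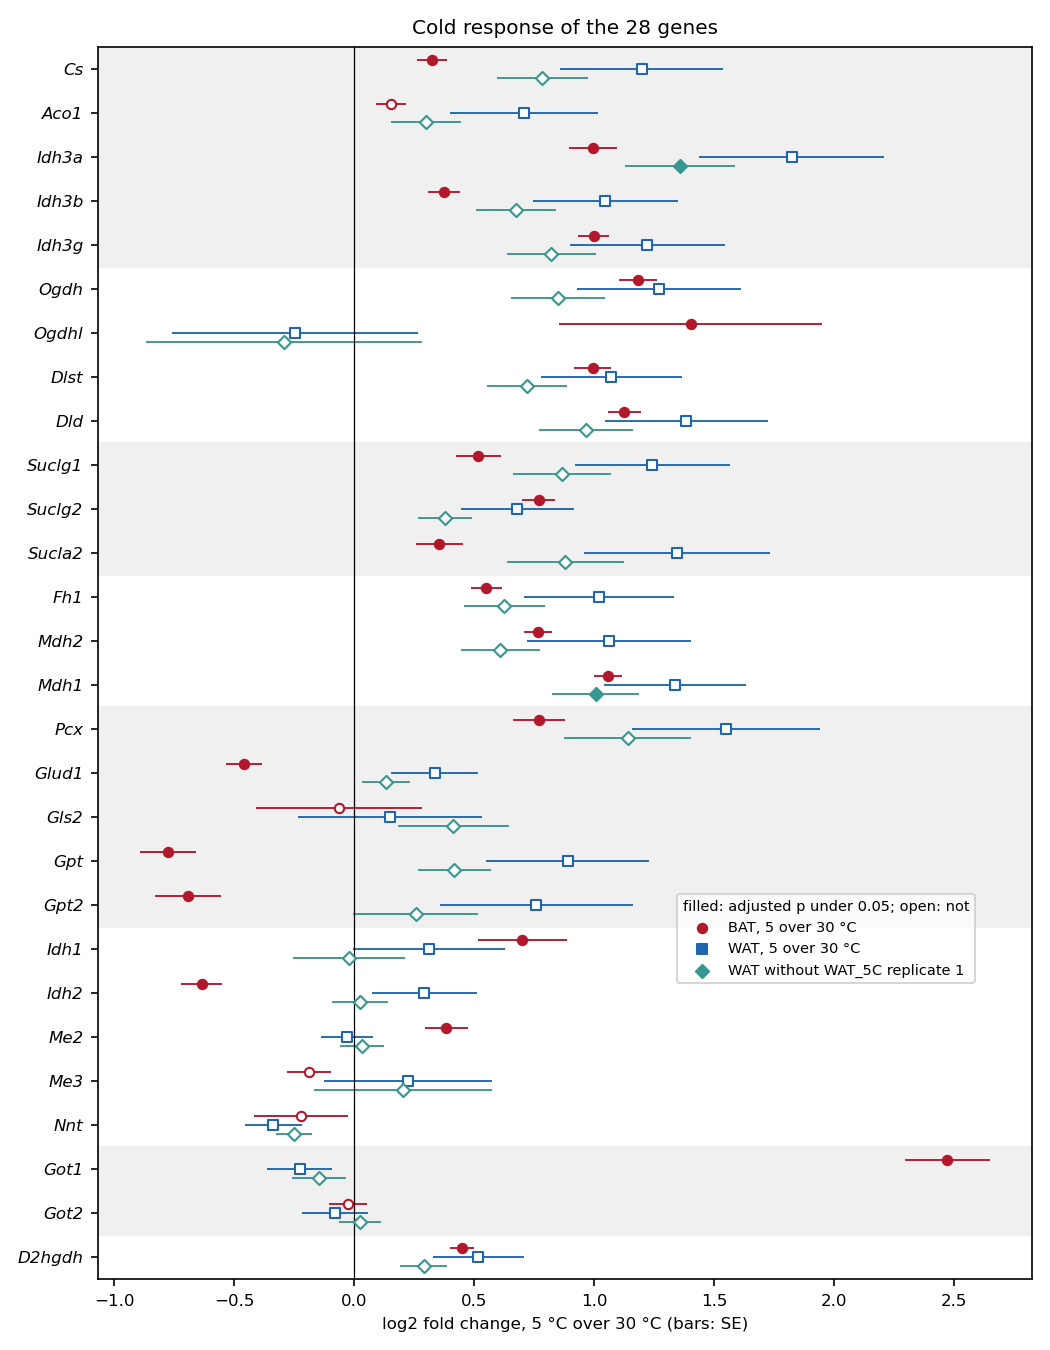
log2 fold change of each gene at 5 °C over 30 °C (x axis; bars are SE) in BAT (circles), in WAT with all libraries (squares) and in WAT without WAT_5C replicate 1 (diamonds), with filled symbols for an adjusted p under 0.05. Got1 at 2.47 in BAT stands right of all other points, and the WAT squares move left to the diamonds for most cycle enzymes.

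The difference between the cold responses of the tissues was tested as an interaction in 1 fit of all 16 libraries, as the log2 response of WAT minus that of BAT. It shares its libraries with the comparisons above. Of the 28 genes 4 were higher and 1 lower, against 12.5 and 8.34% of 19481 genes. The higher count is near the share of all genes and the lower count is below it. The median difference was 0.32 over the 28 genes and 0.12 over all genes. Glud1 had a difference of 0.83 ± 0.20 (SE, adjusted p = 0.00998), Gpt of 1.70 ± 0.38 (SE, adjusted p = 0.00541), Gpt2 of 1.48 ± 0.45 (SE, adjusted p = 0.0296) and Idh2 of 0.96 ± 0.25 (SE, adjusted p = 0.0143). These are the genes that fell in BAT, and their WAT log2 fold changes were 0.34, 0.89, 0.76 and 0.29. Got1 had a difference of -2.67 ± 0.24 (SE, adjusted p = 5.51e-06), with log2 fold changes of -0.23 in WAT and 2.47 in BAT. Without WAT_5C replicate 1 the same 5 passed in the same directions, at 0.58 for Glud1, 1.18 for Gpt, 0.94 for Gpt2, 0.65 for Idh2 and -2.63 for Got1, against 15.6% of genes higher and 15.7% lower. Me2 at -0.36 (adjusted p = 0.0411) and Suclg2 at -0.40 (adjusted p = 0.0357) were also lower there.

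Gpt2 was the least firm of these calls: its adjusted p was 0.0508 to 0.0625 without any 1 of BAT_5C replicates 3 and 4, BAT_30C replicate 1 and WAT_30C replicates 1 and 3. With replicate number as a block it was at 1.36 (adjusted p = 0.0579). For 6 enzymes the sign of the difference turned on WAT_5C replicate 1: Idh3g, Ogdh, Dlst, Dld, Mdh1 and Mdh2 were at 0.11 to 0.33 with it and at -0.34 to -0.061 without it, and none passed either way. D2hgdh was at 0.099 with it and -0.17 without it. The other cycle enzymes Cs, Idh3a, Idh3b, Suclg1, Sucla2 and Fh1 ranged from 0.50 for Fh1 to 1.02 for Sucla2 with that library and stayed positive, at 0.067 to 0.52, without it, and none passed in either fit. Without WAT_5C replicate 2 in its place 9 of the 28 were higher and 2 lower, against 12.9 and 7.82% of 19808 genes. Cs, Idh3a, Idh3b, Suclg1 and Sucla2 were added there on the higher side and Me2 on the lower side. Under library totals 8 of the 28 were higher and 1 lower, against 13.4 and 5.54% of all genes. The added genes were Cs, Idh3b, Suclg1 and Sucla2.

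BAT and WAT were then compared at each temperature, in the fit of all 16 libraries. At 5 °C 21 of the 28 were higher and 4 lower in BAT than in WAT, against 31.8 and 40.5% of 19481 genes, and the same counts held without WAT_5C replicate 1, against 34.0 and 42.2% of 19849 genes. At 30 °C 20 were higher and 4 lower, against 34.5 and 35.3% of genes. The median log2 difference of the 28 was 2.10 at 5 °C and 1.94 at 30 °C, against -0.19 and -0.033 over all genes. With library totals the median of all genes fell by 0.94 at 5 °C and fell by 0.85 at 30 °C, and then 17 were higher and 7 lower at 5 °C (10.9 and 71.3% of genes) and 18 and 6 at 30 °C (12.9 and 66.1%).

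Me3 differed most between the tissues. It was at 75.6, 72.4, 66.0 and 84.3 CPM in BAT_5C against 2.64, 1.41, 3.82 and 2.40 CPM in WAT_5C libraries, a log2 difference of 4.86 ± 0.29 (SE, adjusted p = 6.73e-09), and of 5.31 ± 0.29 (SE, adjusted p = 4.37e-09) at 30 °C. Sucla2, Suclg1 and Idh3a came next, with log2 differences of 3.57, 3.49 and 3.29 at 5 °C and 4.59, 4.25 and 4.15 at 30 °C. The libraries of the tissues did not overlap for any of these genes at either temperature. Cs, the IDH3 subunits, Ogdh, Dlst, Dld, Fh1 and Mdh2 had log2 differences between 2.26 and 3.29 at 5 °C and between 2.65 and 4.15 at 30 °C. Mdh1 had 1.68 at 5 °C and 1.99 at 30 °C, and Suclg2 1.94 and 1.88. All of these stayed positive and passed under library totals.

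The genes lower in BAT under TMM were the same 4 at both temperatures, and all 4 stayed lower under library totals, which added Glud1, Gpt and Pcx at 5 °C and Got1 and Ogdhl at 30 °C. Gpt2 had log2 differences of -2.79 ± 0.34 (SE, adjusted p = 3.51e-06) at 5 °C and -1.31 ± 0.32 (SE, adjusted p = 0.00201) at 30 °C. Nnt had -1.34 ± 0.17 (SE, adjusted p = 7.3e-06) at 5 °C and -1.43 ± 0.17 (SE, adjusted p = 4.32e-06) at 30 °C. Me2 had -0.84 ± 0.096 (SE, adjusted p = 1.88e-06) at 5 °C and -1.22 ± 0.096 (SE, adjusted p = 6.64e-08) at 30 °C. Gls2, the liver-type glutaminase with few reads, had -1.37 ± 0.38 (SE, adjusted p = 0.00453) at 5 °C and -1.13 ± 0.37 (SE, adjusted p = 0.0138) at 30 °C. The malic enzymes Me2 and Me3 thus lay on opposite sides. The labels give C57BL/6 without a substrain, and 1 C57BL/6 substrain is known to carry a deletion in Nnt.

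Got1 and Pcx, which both rose in BAT_5C, did not pass between the tissues at 30 °C with all libraries under TMM. Got1 had a log2 difference of 2.95 ± 0.18 (SE, adjusted p = 7.48e-09) at 5 °C and of 0.28 ± 0.16 (SE, adjusted p = 0.14) at 30 °C, where library totals gave -0.57 (adjusted p = 0.0173). Without BAT_30C replicate 3 the Got1 difference at 30 °C was 0.44 (adjusted p = 0.00989). Pcx had -0.33 ± 0.29 (SE, adjusted p = 0.315) at 5 °C and 0.48 ± 0.29 (SE, adjusted p = 0.154) at 30 °C, where library totals gave -1.17 (adjusted p = 0.000203) and -0.36 (adjusted p = 0.152). Gpt had -0.50 ± 0.27 (SE, adjusted p = 0.102) at 5 °C and 1.19 ± 0.27 (SE, adjusted p = 0.00111) at 30 °C, where library totals gave -1.33 (adjusted p = 1.39e-05) and 0.35 (adjusted p = 0.104). The sign for Gpt was thus negative at one temperature and positive at the other, and without WAT_5C replicate 2 its difference at 5 °C was -0.69 (adjusted p = 0.0214). Idh1 had 0.96 ± 0.28 (SE, adjusted p = 0.00654) at 5 °C and 0.60 ± 0.28 (SE, adjusted p = 0.067) at 30 °C, and neither passed under library totals. Aco1, Glud1, Idh2, Got2 and D2hgdh were higher in BAT at both temperatures under TMM, from 0.56 for Glud1 to 2.53 for Idh2 at 5 °C. Under library totals at 5 °C Aco1 was at -0.073, Got2 at -0.087 and Glud1 at -0.33 (adjusted p = 0.00458), and at 30 °C Got2 was at 0.0053.

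**Figure D4:**
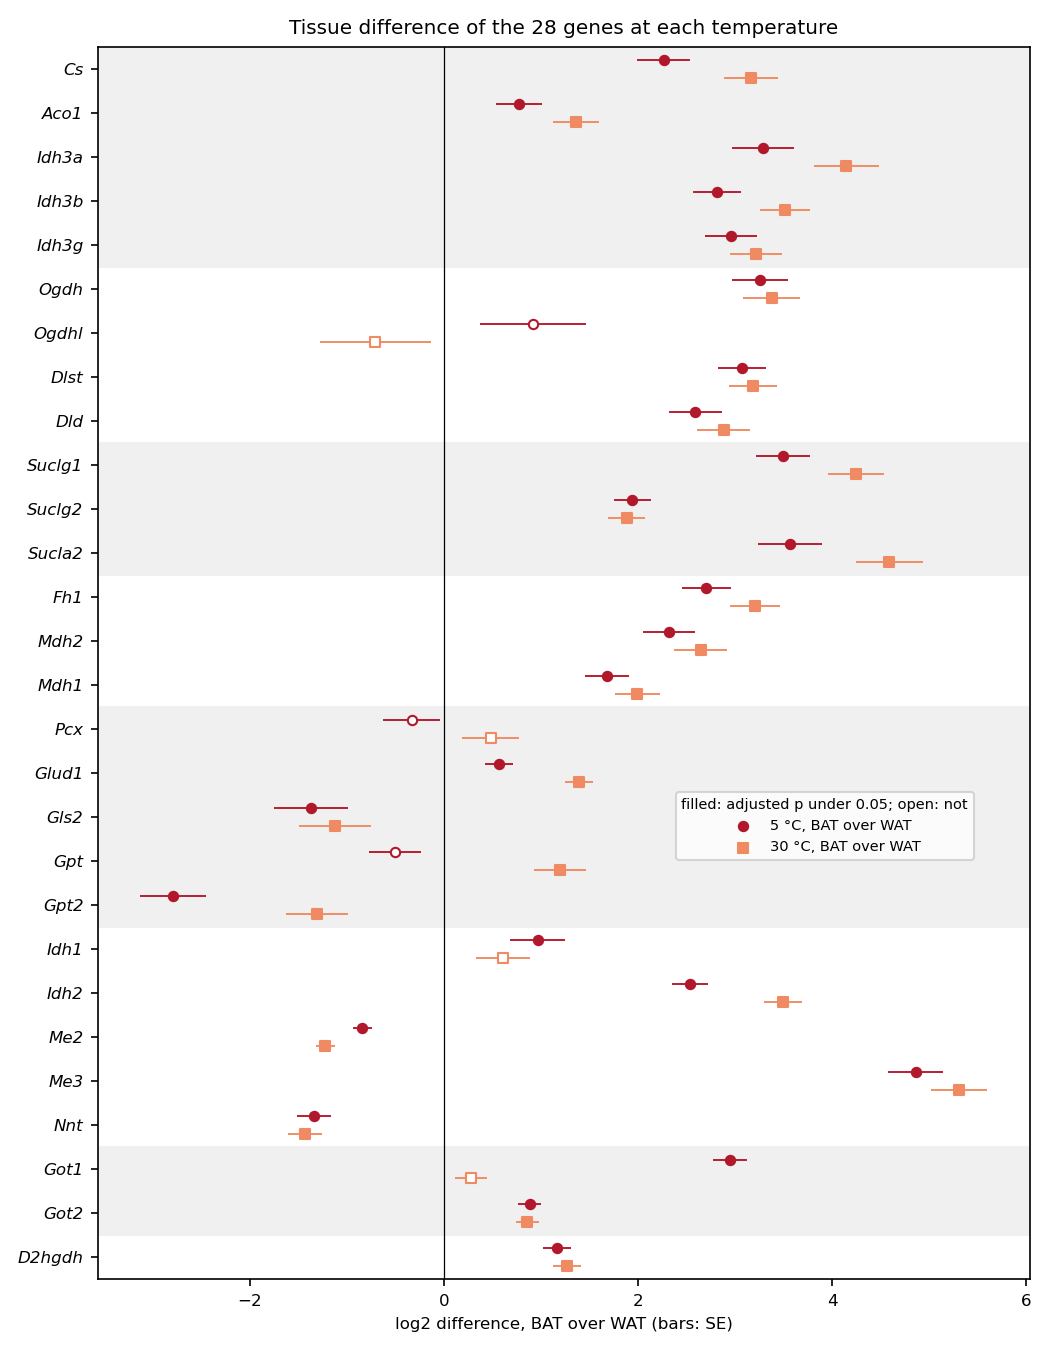
log2 difference of each gene in BAT over WAT (x axis; bars are SE, 4 libraries per group, TMM scaling) at 5 °C (circles) and at 30 °C (squares), with filled symbols for an adjusted p under 0.05. Most genes lie right of 0 at both temperatures, Gls2, Gpt2, Me2 and Nnt lie left, and Got1 lies near 0 at 30 °C.

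Ratios between 2 related genes within a library do not depend on the scaling between libraries. They are log2 ratios of counts, not corrected for length, so their change is compared and not their level. Of 9 pairs, 5 did not overlap between BAT_5C and BAT_30C and 2 between WAT_5C and WAT_30C. Each of those 7 had an exact two-sided permutation p of 0.0286, the smallest that 4 against 4 libraries can give, and an adjusted p of 0.0735 over the 18 tests, so none passed the correction.

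The cytosolic transaminase gained on the mitochondrial one in BAT. The log2 ratio of Got1 to Got2 was 0.26, 0.38, 0.49 and 0.59 in BAT_5C libraries, against -1.77, -2.09, -2.60 and -1.92 in BAT_30C libraries, a difference of 2.53 or 5.76-fold. All 4 BAT_5C ratios were above 0 and all 4 BAT_30C ratios below it. In WAT the same ratio was -1.54, -1.90, -1.46 and -1.63 in WAT_5C libraries, against -1.60, -1.49, -1.47 and -1.39 in WAT_30C libraries, with overlapping groups. The ratio of Idh1 to Idh2, cytosolic to mitochondrial, was 0.23, 0.27, 0.55 and 0.26 in BAT_5C libraries, against -0.26, -1.37, -1.19 and -1.45 in BAT_30C libraries, a difference of 1.39. BAT_30C replicate 1 was nearest to the BAT_5C ratios. In WAT the ratio overlapped, with a difference of 0.029.

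The ratio of cytosolic Mdh1 to mitochondrial Mdh2 was separate in both tissues. It was 0.12, 0.24, 0.28 and 0.23 in BAT_5C libraries, against -0.085, -0.072, -0.085 and -0.052 in BAT_30C libraries, a difference of 0.29. In WAT it was 0.68, 0.91, 0.96 and 1.03 in WAT_5C libraries, against 0.56, 0.61, 0.53 and 0.62 in WAT_30C libraries, a difference of 0.32, and of 0.39 without replicate 1 (exact permutation p = 0.0571, the smallest for 3 against 4). The 5 °C libraries lay above the 30 °C libraries each time. Suclg2 to Sucla2, the GTP-forming over the ATP-forming subunit, was -2.72, -2.81, -2.72 and -2.76 in BAT_5C libraries, against -3.01, -3.24, -3.12 and -3.27 in BAT_30C libraries, a difference of 0.41. In WAT that ratio overlapped, at a difference of -0.58. Me3 to Me2 was 2.36, 2.07, 2.12 and 2.23 in BAT_5C libraries, against 2.52, 2.91, 2.93 and 2.72 in BAT_30C libraries, a difference of -0.57 with lower BAT_5C values throughout.

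The ratios of Gpt to Gpt2 and of Ogdhl to Ogdh overlapped in both tissues.

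**Figure D5:**
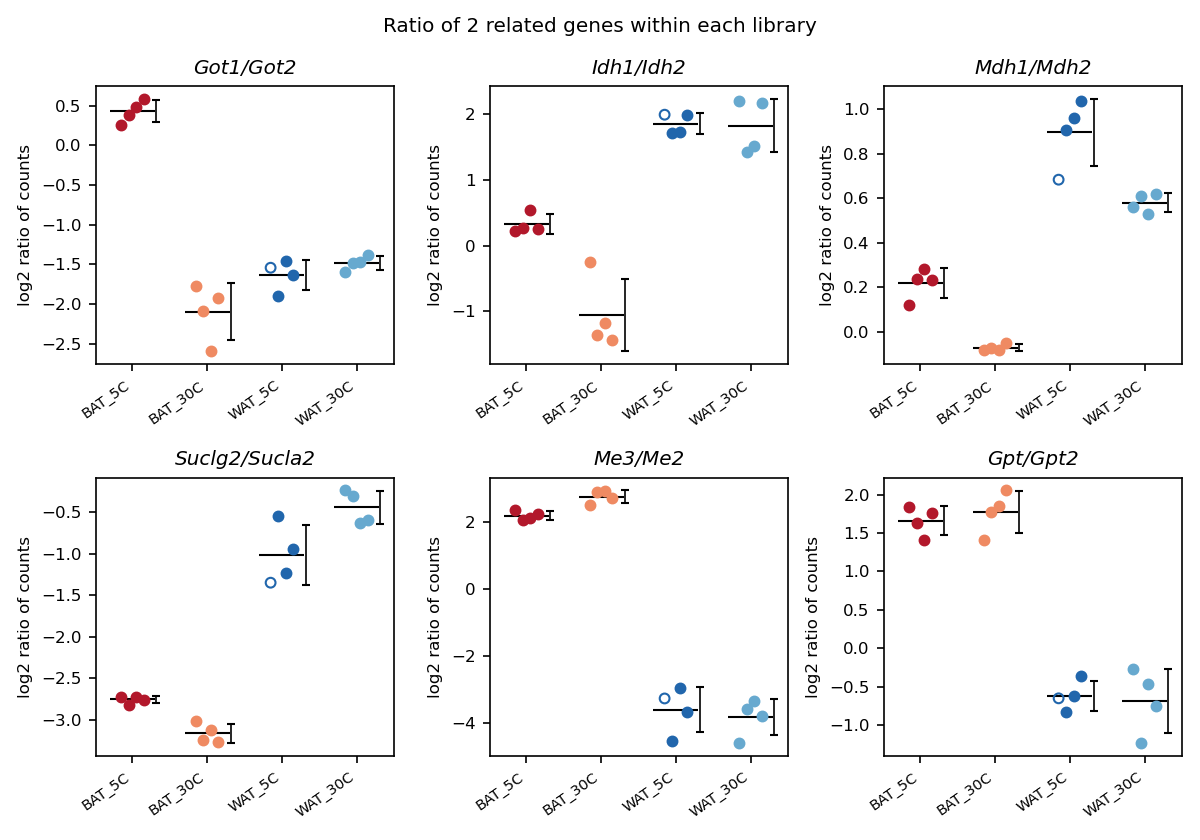
log2 ratio of the counts of 2 related genes in each library (y axis) for 6 pairs; points are libraries by group, with WAT_5C replicate 1 as an open circle, horizontal lines are means and bars SD (n = 4). Got1/Got2 is above 0 in BAT_5C and below -1 in the other 3 groups, Mdh1/Mdh2 is higher at 5 °C in both tissues, and Gpt/Gpt2 overlaps between temperatures in both.

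The 28 genes are part of a wider pathway, and 34 further genes of it were counted in the same fits: succinate dehydrogenase with its assembly factors, pyruvate entry, glutamine and glycerol phosphate enzymes, carriers and citrate export. In BAT 23 of the 34 rose and 3 fell, against 29.2 and 30.3% of all genes, and 8 did not pass. Their median log2 fold change was 0.64. Under library totals 19 rose and 6 fell, against 14.3 and 54.5% of all genes. The 4 with the smallest adjusted p were Mpc2 at 2.43 ± 0.063 (SE, adjusted p = 2.15e-08), Mpc1 at 2.52 ± 0.077 (SE, adjusted p = 3.24e-08), Pdhb at 1.86 ± 0.061 (SE, adjusted p = 3.93e-08) and Acly at 4.13 ± 0.15 (SE, adjusted p = 5.4e-08). Mpc1 and Mpc2 form the mitochondrial pyruvate carrier, Pdhb is a subunit of pyruvate dehydrogenase, and Acly splits exported citrate for fatty acid synthesis. Among those that fell, and named after their values were seen, were Pck2 at -1.80 and Gpd1l at -0.31.

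In WAT 0 of the 34 passed with all libraries under TMM and 6 rose under library totals, where 0.0632 and 0.385% of all genes rose. Without WAT_5C replicate 1, 12 rose under either scaling, against 1.84% of genes under TMM and 1.16% under library totals. At an unadjusted p under 0.05 23 of the 34 had a positive and 3 a negative log2 fold change, against 2144 and 1286 of 18975 genes. DESeq2 called 15, all higher in WAT_5C, against 3.99% of genes higher and 1.16% lower. The 4 with the smallest adjusted p were Acly at 2.71 (adjusted p = 0.0691), Mpc2 at 2.03 (adjusted p = 0.0708), the cytosolic malic enzyme Me1 at 2.97 (adjusted p = 0.0781) and the citrate carrier Slc25a1 at 2.25 (adjusted p = 0.0874). Without replicate 1 they were at 2.40, 1.73, 2.66 and 1.92, and all 4 rose. Between the tissues, 26 of the 34 were higher and 5 lower in BAT at 5 °C, against 31.8 and 40.5% of all genes. At 30 °C 25 were higher and 4 lower, against 34.5 and 35.3%.

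Some of these genes share sequence with other loci, which can move reads in or out of a count. The share of 50-base windows of the exons that occurs elsewhere among annotated transcripts was 47.0% for Nnt (a second identifier of the same gene), 25.6% for Got2, 17.8% for D2hgdh, 16.0% for Suclg2, 6.49% for Glud1 and 6.14% for Me3, and at most 2.34% for the rest. Among the partner loci, Got2-ps1 and Gm10874 of Got2, Gm18666 and Gm7889 of D2hgdh and Gm43444 of Glud1 were at most 0.17 CPM in any library. Gm45760, which overlaps Got2 on the opposite strand, and Glud-ps, which shares windows with Glud1, matched no identifier of the count table by name, so they have no level here. Gm15163, the Suclg2 partner, was at 0.479 to 1.11 CPM in BAT_5C and 0.148 to 0.405 CPM in BAT_30C. A230065N10Rik, which overlaps Me3 on the opposite strand, was at 0.872 to 1.19 CPM in BAT_5C and 0.536 to 0.789 CPM in BAT_30C. How the authors' counting treated such reads, and strand, is not given in the sources used here.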

How the data were processed

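The authors deposited 1 table of raw counts per Ensembl gene identifier, with 16 library columns. Reads had been handled with Trim Galore and TopHat, per the submitters' processing notes, which give no versions. The counter, its strand setting and the build: not given in the sources used here. Symbols, exon lengths and shared windows came from GENCODE vM21 (GRCm38), and promoters from RefSeq GRCm38.p6.

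Genes with low counts were removed with filterByExpr (minimum count 10, minimum total 15). Differences were tested under TMM scaling with glmQLFit and glmQLFTest of edgeR 4.0.16 in R 4.3.3, its quasi-likelihood test, within each tissue for temperature (16213 genes in BAT, 18975 in WAT) and over all 16 libraries together for the interaction and the tissue differences (19481 genes). Benjamini-Hochberg adjustment took in every gene of a fit, and an adjusted p under 0.05 counted as passing. SE was obtained by dividing the absolute log2 value by the root of the F statistic. CPM were scaled by TMM over all 16 libraries. The pipeline was tested on simulated data. Pair ratios were tested by exact permutation (scipy 1.17.1), adjusted over 18 tests. Alternatives were RLE size factors, library totals, no filter, DESeq2 1.42.0, each library left out, a replicate block, all 16 libraries in 1 fit and the 4 BAT libraries whose labels match. Library totals together with leaving out WAT_5C replicate 1 was added after seeing the data.

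The 28 genes, the 34 further pathway genes and the marker lists were chosen with earlier results of these data known. Genes given library by library were, per role, those with the smallest adjusted p in BAT and in WAT without WAT_5C replicate 1, those called against the common direction, those past the interaction threshold and both genes of pairs that do not overlap. Of the 34, the 4 with the smallest adjusted p per tissue were named. Values of 2 of the 34 and of 2 gene pairs are counted but not reported here. No 2 libraries of a group agreed within sampling noise (chi-square over its degrees of freedom at least 21.4). Equal replicate numbers did not deviate together, so groups were treated as unpaired.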

Additional observations from a re-analysis of the deposited data

Results flagged for a closer look

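In 4 of the 112 sets of 4 libraries tested (28 genes in 4 groups), 1 library lay far from the other 3 of its group by Dixon's criterion, which chance alone reaches in about 1 of 20 sets. Glud1 was at 189.8 CPM in WAT_30C replicate 4. The other WAT_30C libraries lay between 155 and 160.3 CPM. Gpt2 was at 292 CPM in WAT_5C replicate 1, against 104 to 116 CPM in the other 3. Idh1 was at 453 CPM in BAT_30C replicate 1, against 241 to 257 CPM in the other 3. Got1 was at 111 CPM in BAT_5C replicate 1, against 137 to 142 CPM in the other 3.

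The cold responses of the tissues differed by the interaction test (edgeR's quasi-likelihood test, all 16 libraries) in 5 genes. Of the 28, 4 were higher and 1 lower, against 12.5 and 8.34% of all 19481 genes. These counts do not stand out from all genes: the higher one is near that share and the lower one below it. The log2 response of WAT minus that of BAT was 0.83 for Glud1, 1.70 for Gpt, 1.48 for Gpt2, 0.96 for Idh2 and -2.67 for Got1.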

How the results depend on the processing

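The counts of the 28 genes past the threshold were 23 in BAT and 0 in WAT for the cold contrasts, 5 for the difference of cold responses, 25 between the tissues at 5 °C and 24 at 30 °C. RLE size factors, library totals, no filter, DESeq2, leaving out each library, the replicate block and, where planned, 1 fit of all 16 libraries were tried. Counts that moved by over 1.5 times were 15 in BAT and 16 in WAT with 1 fit of all 16 libraries, 12 in WAT with DESeq2, and 9 for the difference of cold responses under library totals. Library totals without WAT_5C replicate 1, added after seeing the data, gave 2 in WAT and 11 for the difference. In WAT 1.16% of all genes rose and 0.455% fell there. For the difference the share of all genes was not counted, and the median was 0.297 over the 28 genes and 0.298 over all genes. Leaving out 1 library gave 22 to 24 in BAT, 0 to 5 in WAT, 4 to 11 for the difference, 25 to 26 between tissues at 5 °C and 24 to 25 at 30 °C. The extremes of 5 and 11 came without WAT_5C replicate 2, with 2 and 7 without replicate 1. The pairs not overlapping were 5 in BAT and 2 in WAT, with 5 to 6 and 2 to 4 when 1 library was left out, and 4 in WAT without WAT_5C replicate 2.

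Nothing showed that replicate numbers pair the samples: residuals of equal numbers in different groups correlated from -0.456 to 0.287 across genes. With the replicate block the counts were 23 in BAT, 0 in WAT, 4 for the difference of cold responses, 25 between tissues at 5 °C and 25 at 30 °C. The share of all genes past the threshold with the block was not counted. Gpt2 lost its call in the difference of cold responses and Idh1 gained one at 30 °C (0.59, adjusted p = 0.0344).

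Log2 values that changed sign, most of them close to 0, were the following. With library totals, the values were Cs -0.054, Aco1 -0.23, Idh3b -0.0054 and Sucla2 -0.022 for BAT_5C against BAT_30C; Gls2 -0.025, Idh1 -0.023, Idh2 -0.025 and Me3 -0.045 for WAT_5C against WAT_30C; Nnt 0.030 and Got2 0.092 for the difference of cold responses; Pcx -0.36, Idh1 -0.23 and Got1 -0.57 for BAT_30C against WAT_30C; Aco1 -0.073, Ogdhl -0.016, Glud1 -0.33 and Got2 -0.087 for BAT_5C against WAT_5C. In the 4 BAT libraries whose labels match, the values were Gls2 0.16 and Got2 0.0092 for BAT_5C against BAT_30C. With DESeq2, the values were Got2 0.0068 for BAT_5C against BAT_30C. With the replicate block, the values were Gls2 -0.0077 for WAT_5C against WAT_30C. In 1 fit of all 16 libraries, the values were Me2 0.0014 for WAT_5C against WAT_30C. Without a filter, the values were Got2 0.0014 for the difference of cold responses. Leaving out 1 library, the values for BAT_5C against BAT_30C ran as Gls2 -0.21 to 0.27 and Got2 -0.063 to 0.058. Leaving out 1 library, the values for WAT_5C against WAT_30C ran as Ogdhl -0.52 to 0.43, Gls2 -0.18 to 0.41, Idh1 -0.022 to 0.53, Me2 -0.089 to 0.031, Me3 -0.024 to 0.44 and Got2 -0.14 to 0.025. Leaving out 1 library, the values for the difference of cold responses ran as Idh3g -0.19 to 0.47, Ogdh -0.34 to 0.34, Dlst -0.28 to 0.31, Dld -0.17 to 0.51, Suclg2 -0.40 to 0.092, Mdh2 -0.17 to 0.53, Mdh1 -0.061 to 0.51, Gls2 -0.083 to 0.47, Nnt -0.22 to 0.081, Got2 -0.084 to 0.041 and D2hgdh -0.17 to 0.21. Leaving out 1 library, the values for BAT_5C against WAT_5C ran as Pcx -0.54 to 0.060. The cause of these changes was not tested. Library totals moved the log2 values of all genes by a median of -0.38 in BAT and -0.255 in WAT for the cold contrasts. The move was not equal between genes: in WAT Idh3a went from 1.82 to 1.46 and Gls2 from 0.15 to -0.025.

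Depth limits Ogdhl and Gls2, which had as few as 3 and 10 counts in a library, and the spread of the WAT_5C libraries limits every WAT value.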
